A study of Mus musculus with 2 samples.

Results

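The 40 genes described here serve cell division and were listed for their function in mitosis, with earlier results of these data known. Their probes on a mouse whole-genome oligonucleotide array were found through RefSeq transcripts, which named 27230 of the 55674 probes, so a gene may have probes that were not found, and a probe was kept where its signal was well above background on at least 1 of the 2 arrays by the mark of the image analysis software. This left 55 of 56 probes and 39 of 40 genes, among 16282 named genes measured in the same way. Cenpf, a large protein of the outer kinetochore, had 1 probe, which was not well above background on either array, and gave no value.

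Both arrays came from ovaries of mice 2 weeks old, each cut lengthwise into 2 like pieces, and cultured for 3 days. On the agonist array, RNA came from pieces cultured with agonists of the tachykinin receptors (TKRs), which the peptides substance P, neurokinin A and neurokinin B bind, and on the antagonist array from pieces cultured with antagonists of the same receptors, each ligand at 1 μM. The agonists were [Sar9, Met(O2)11]-SP for TACR1, GR-64349 for TACR2 and, for TACR3, a succinylated analogue of a substance P fragment. The antagonists were L-703,606 for TACR1, GR-94800 for TACR2 and SB218795 for TACR3. The labels give neither strain nor the number of ovaries behind each RNA, and ovaries cultured without ligand were not analysed here.

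Each group had 1 array, so no spread between ovaries can be estimated, no test was made, and each difference below describes this pair of arrays. Of 59305 spots that were not controls, 65.4% were well above background with the agonists and 61.6% with the antagonists, and 0 were saturated on either array. A signal below is the deposited intensity after background correction and before any scaling. Signals are given for the agonist array before the antagonist array. A log2 ratio is log2 of agonist over antagonist signal after division of each array by its 75th percentile (672 signal units with the agonists and 569 with the antagonists), which lowers every log2 ratio by 0.24, so that a log2 ratio between -0.24 and 0 has the opposite sign without scaling. Its error is that of the software for the spots and leaves out the spread between ovaries.

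Before a cell divides, cyclin-dependent kinase 1 bound to cyclin A or B switches on Polo-like and Aurora kinases, which condense chromosomes and build the spindle. Kinetochores tie each chromosome to spindle fibres, and a checkpoint holds back the anaphase-promoting complex until all are attached. The complex then marks securin and cyclin B for destruction, sister chromatids part, and a contractile ring divides the cell. In the ovary of an immature mouse most dividing cells are granulosa cells of growing follicles, while the oocytes are arrested in meiosis and store transcripts of several of these genes, cyclin B1 and securin among them. The transcripts of mitosis genes accumulate late in the cell cycle and are scarce in resting cells.

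The mitosis genes were lower on the agonist array, by a small amount and nearly throughout the list. Their median log2 ratio was -0.44, or 1.36 times lower with the agonists, with an SD of 0.20 across the 39 genes and quartiles at -0.61 and -0.33. Over all 16282 named genes the median was -0.08 with an SD of 0.51, so the median of the mitosis genes lay 0.36 lower. The log2 ratio was below 0 for 38 of the 39 genes, against 59.5% of all named genes; the count was 33 unscaled and 32 scaled on spike-in controls, where 27.6% and 27.1% of all named genes were below 0. At least 1.5-fold lower were 12 of 39, against 4.85% of all named genes, but 0 of 39 when unscaled or scaled on spike-in controls, where 1.71% and 1.70% of all named genes were.

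No mitosis gene was 2-fold lower, a difference that 0.854% of all named genes reached, and 0 were at least 1.5-fold higher, against 10.1% of all named genes. Rank among all genes does not move with a factor common to an array. By rank, 21 of the 39 were in the lowest 10% of log2 ratios and 31 in the lowest 25%, and 38 were below the median of all named genes. After scaling, the log2 ratio was further below 0 than its error, which lay between 0.20 and 0.22, for 33 genes. It was further below 0 than 2 times this error for 21. Both counts depend on the scaling, which lowers every log2 ratio by 0.24, more than the error itself. Measured from the median of all named genes instead of 0, 31 genes were lower by more than their error. The shares of all named genes beyond these limits were not counted. In RNA of whole ovary, fewer dividing cells and less of these transcripts in each cell cannot be told apart.

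**Figure D1:**
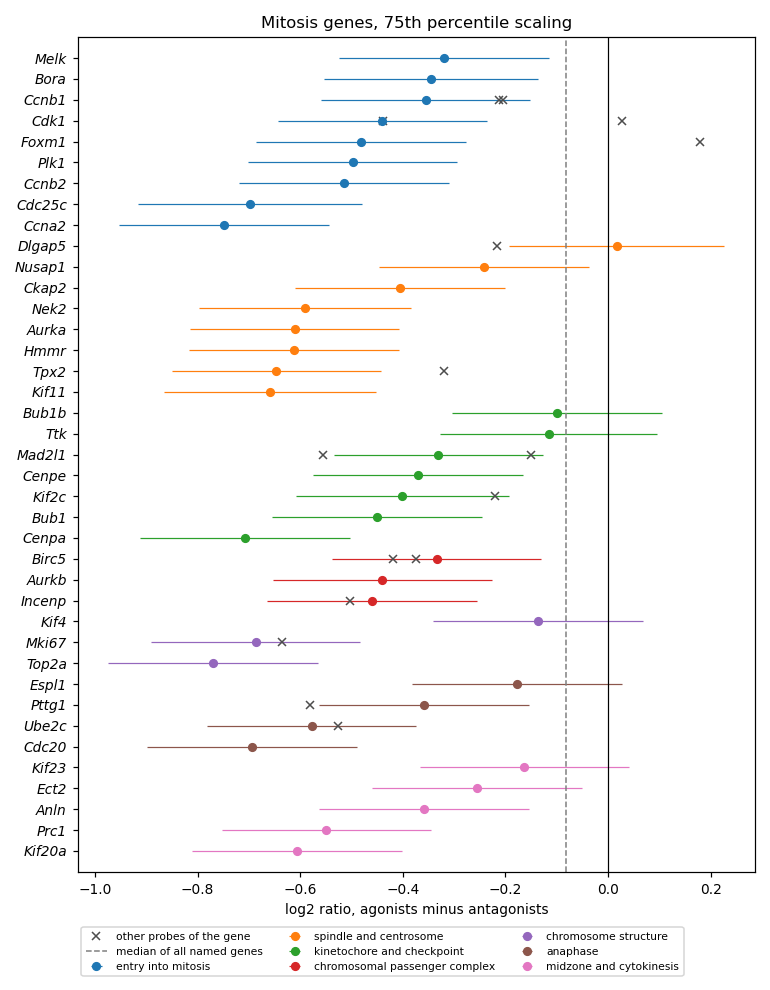
Log2 ratio (agonists minus antagonists, x axis) of the 39 measured mitosis genes (y axis), in the order of their roles; points are the probe used for each gene, bars the software's error of the spots, crosses the gene's other probes, and the dashed line the median of all named genes at -0.08. With 75th percentile scaling 38 of 39 points lie left of 0, between -0.77 (Top2a) and -0.10 (Bub1b), and Dlgap5 lies at 0.02.

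Of the 9 genes that control entry into mitosis, 9 were lower, with a median log2 ratio of -0.48 and a range from -0.75 to -0.32. Cdk1, the kinase that drives entry, gave signals of 3252 and 3730, a log2 ratio of -0.44. Ccna2, the A-type cyclin that acts from S phase into mitosis, gave 2284 and 3246, a log2 ratio of -0.75. The B-type cyclins, the partners of this kinase at entry, were lower by less than cyclin A: Ccnb1 gave 6685 and 7235 (log2 ratio -0.36). Ccnb2 gave 4816 and 5821 (log2 ratio -0.51). Ccna2 lay 0.39 below Ccnb1, more than the combined error of 0.29, and 0.23 below Ccnb2, less than that error.

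Cdc25c, the phosphatase that frees the kinase of its inhibitory phosphates, gave 89.3 and 123, a log2 ratio of -0.70. Plk1, the Polo-like kinase of mitosis, gave 5412 and 6463, a log2 ratio of -0.50. Bora, the cofactor through which Aurora A activates this kinase, gave 192 and 206, a log2 ratio of -0.34. Foxm1, the transcription factor that raises many genes of this list late in the cycle, gave 454 and 536, a log2 ratio of -0.48. Melk, a kinase of dividing cells, had the log2 ratio nearest 0 of these genes, -0.32. By the probe used for each, the 9 genes thus ranged over 0.43 on the log2 scale, and their signals were lower with the agonists before scaling as well. The other Ccnb1 probes gave 346.5 and 337.6 (log2 ratio -0.20) and 356.4 and 349.3 (log2 ratio -0.21). Before scaling these were higher with the agonists, as were dim probes of Cdk1 and Foxm1 given below.

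Of the 8 genes for spindle and centrosome, 7 were lower after scaling, and the median log2 ratio was -0.60. At least 1.5-fold lower were 5 of the 8, against 4.85% of all named genes. Unscaled, 0 of the 8 were, against 1.71% of all named genes, and their median was -0.36. Kif11, the motor that slides antiparallel microtubules apart and keeps the spindle bipolar, gave 250 and 334, a log2 ratio of -0.66. Tpx2, which activates Aurora A on spindle microtubules, gave 1337 and 1771, a log2 ratio of -0.65, and Aurka itself gave 4268 and 5513, a log2 ratio of -0.61. Hmmr, a spindle protein that also binds hyaluronan, gave 1288 and 1666 (log2 ratio -0.61), and Nek2, a kinase of centrosome separation, 234 and 299 (log2 ratio -0.59). By the probe used for each, these 5 genes lay within 0.07 of each other, well inside their error of about 0.20.

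The other spindle genes were closer to the rest of the array. Ckap2, a microtubule-stabilising protein, gave 638 and 714, a log2 ratio of -0.41. Nusap1, which bundles microtubules near chromosomes, gave 2124 signal units on both arrays, so its log2 ratio of -0.24 came wholly from the scaling. Dlgap5, which stabilises the fibres at kinetochores, gave 218 and 182, a log2 ratio of 0.02. Its other probe gave 141 and 139, a log2 ratio of -0.22. The 2 Dlgap5 probes differed by 0.23, about the error of a single probe, and Dlgap5 was the only measured member above 0 with 75th percentile scaling; with scaling on the median, normexp background correction or averaging over probes it was below 0.

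Of the 7 measured genes for kinetochore and checkpoint, 7 were lower with 75th percentile scaling and the median log2 ratio was -0.37. Cenpa, the histone H3 variant that marks the centromere, gave 1110 and 1533, a log2 ratio of -0.71. Cenpe, a kinetochore motor, gave 4796 and 5245 (log2 ratio -0.37). Kif2c, a motor that takes microtubule ends apart to correct wrong attachments, gave 218 and 243 (log2 ratio -0.40). Mad2l1, the checkpoint protein that binds and holds back CDC20, gave 3931 and 4182 (log2 ratio -0.33). Among the checkpoint kinases, Bub1 had -0.45, whereas Ttk, the kinase at the head of the checkpoint, gave 167 and 153 (log2 ratio -0.12). Bub1b, the checkpoint protein BUBR1, gave 1328 and 1203 (log2 ratio -0.10). Ttk and Bub1b lay within 0.04 of the median of all named genes, within their error, and were higher with the agonists if unscaled or scaled on spike-in controls, Bub1b also with loess and with the authors' values.

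Bub1 was measured at 10 spots, which shows how closely 1 RNA is read within an array. Its agonist signals had a lowest value of 985, a median of 1035 and a highest value of 1084. Its antagonist signals had a lowest value of 1095, a median of 1189 and a highest value of 1305. Every antagonist spot was brighter than every agonist spot even before scaling, with means of 1194 ± 66.3 (SD, 10 spots) and 1032 ± 35.0 (SD, 10 spots). After scaling the lowest antagonist spot lay 0.26 above the highest agonist spot on the log2 scale, and the log2 ratio over spots was -0.45 ± 0.08 (SD, 10 spots). This SD is close to the median of 0.07 for 284 probes read at 10 spots and well above background at all of them. Spots of an array share their RNA, so they are no replicates of the culture.

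**Figure D2:**
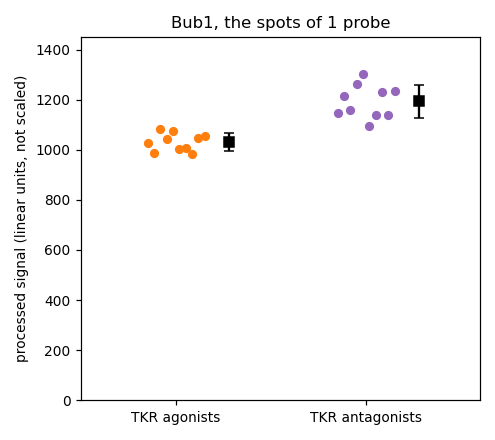
Processed signal (y axis, linear units before scaling) of the 10 spots of the Bub1 probe on the agonist and the antagonist array; squares and bars are the mean and SD over spots of 1 array. The agonist spots lie between 985 and 1084 and the antagonist spots between 1095 and 1305, without overlap.

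The chromosomal passenger complex, which sits at the inner centromere and corrects attachments before moving to the midzone, was lower in its 3 listed subunits and uniform. Its kinase Aurkb gave 132 and 151, a log2 ratio of -0.44. Its scaffold Incenp gave 7309 and 8503 (log2 ratio -0.46), and its subunit Birc5, also called survivin, 18923 and 20176 (log2 ratio -0.33). These 3 log2 ratios lay within 0.13 of each other, less than their error.

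Among genes of chromosome structure, Top2a had the lowest log2 ratio of all 39. Top2a, the topoisomerase that untangles sister chromatids, gave 1209 and 1744, a log2 ratio of -0.77, or 1.71 times lower. Mki67, the Ki-67 antigen that coats mitotic chromosomes and is used as a marker of dividing cells, gave 5401 and 7354, a log2 ratio of -0.69. Kif4, a chromosome-bound motor, gave 669 and 622, a log2 ratio of -0.14, which is within its error of 0 and above 0 unscaled and on spike-in controls.

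Of the 4 genes that bring about anaphase, 4 were lower with 75th percentile scaling, with a median log2 ratio of -0.47. Cdc20, the activator of the anaphase-promoting complex, gave 5469 and 7483, a log2 ratio of -0.69. Ube2c, the ubiquitin-conjugating enzyme that works with the complex, gave 2369 and 2990, a log2 ratio of -0.58, which is 1.49 times lower and just short of the 1.5-fold limit. Pttg1, which encodes securin, gave 20451 and 22183 (log2 ratio -0.36), and Espl1, the protease separase that securin holds in check, gave 524 and 501 (log2 ratio -0.18, above 0 unscaled and on spike-in controls). Cdc20 lay 0.52 below Espl1, more than the combined error of 0.29. It lay 0.34 below Pttg1 by the probe used, but 0.11 below the other Pttg1 probe, which gave 78.3 and 99.1 (log2 ratio -0.58).

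Of the 5 genes for midzone and cytokinesis, 5 were lower with 75th percentile scaling, with a median log2 ratio of -0.36. Kif20a, a midzone motor needed for cytokinesis, gave 1903 and 2451, a log2 ratio of -0.61. Prc1, which bundles midzone microtubules, gave 4434 and 5487 (log2 ratio -0.55). Anln, a scaffold of the contractile ring, gave 2324 and 2520 (log2 ratio -0.36). Ect2, the exchange factor that activates RhoA there, gave 1133 and 1144 (log2 ratio -0.26), and Kif23, the motor of the centralspindlin complex that recruits it, 1232 and 1167 (log2 ratio -0.16, above 0 unscaled and on spike-in controls). Kif20a lay 0.44 below Kif23, more than the combined error of 0.29, and Prc1 lay 0.29 below Ect2, close to it.

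With 75th percentile scaling, the probes of a gene mostly gave the same direction. Of 12 genes with over 1 probe, 28 probes in all, 9 had every probe below 0. Over all 55 probes the median was -0.42 and 52 were below 0. Of all named genes, by 1 probe each, 59.5% were below 0. The shares over all probes and over all genes with more than 1 probe were not counted. Unscaled, a Kif2c probe (217.6 and 214.5), a Mad2l1 probe (157.9 and 148.1) and the dimmer Ccnb1 probes were higher with the agonists. For Mki67 the probes gave -0.69 and -0.64, for Incenp -0.50 and -0.46, for Ube2c -0.58 and -0.53, and for the 3 probes of Birc5 between -0.42 and -0.33. The probes of Cdk1 and Foxm1 disagreed, each through a dim probe: a Cdk1 probe with signals of 27.6 and 22.9 gave 0.03 with an error of 0.42, and a Foxm1 probe with signals of 35.9 and 26.8 gave 0.18 with an error of 0.37. These lay close to the lowest probe signal well above background, 18.1 with the agonists and 19.9 with the antagonists. The other probes of Cdk1 both gave -0.44. For Mad2l1 the 3 probes ranged from -0.56 to -0.15, and those of Tpx2 gave -0.65 and -0.32. Probes of the same gene thus differed by 0.3 or more in 4 of the 12 genes.

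The lower log2 ratio of the mitosis genes was seen at high and at low signals. The 29 members whose mean signal reached the 75th percentile had a median of -0.45, against -0.15 for all 8430 such genes, and the 10 members below it had a median of -0.42, against 0.00 for all 7852 such genes. Members of different signal thus gave nearly the same median.

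**Figure D3:**
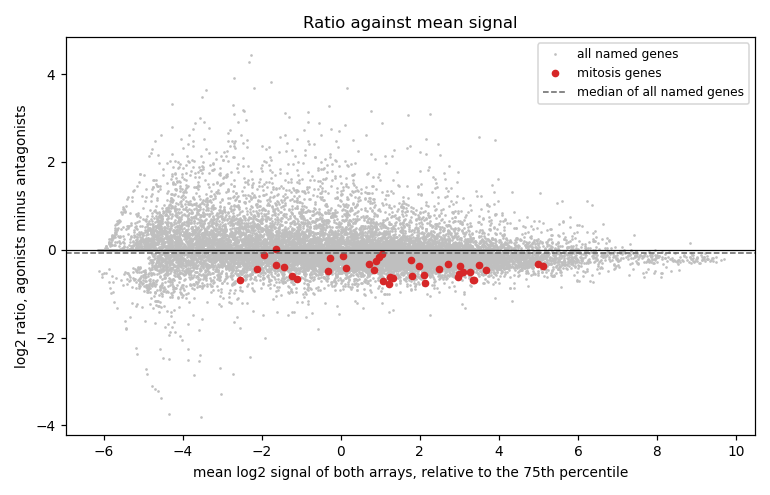
Log2 ratio (agonists minus antagonists, y axis) against mean log2 signal of both arrays relative to the 75th percentile (x axis) for 16282 named genes (grey) and the 39 mitosis genes (red); the dashed line is the median of all named genes. The red points lie in a band between -0.77 and 0.02, in the lower part of the grey cloud at dim and bright signals.

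Many mitosis genes share sequence elements in their promoters that were no part of how they were listed. The cell cycle genes homology region (CHR) is an element bound by the MuvB complex, which represses these genes in resting cells and activates them, with B-MYB and FOXM1, in dividing cells, and the CCAAT box is bound by NF-Y. The letters TTTGAA and TTCGAA for the CHR and CCAAT for the box were searched on both strands, each match being counted also where it overlapped another, in RefSeq promoters of assembly GRCm38.p6, from 250 bases before to 50 after the start. Promoters were listed for 31 of the 40 genes, 33 promoters in all, since Ect2 and Prc1 had 2 overlapping ones each. A CHR was in 25 of the 33 (75.8%), against 19.2% of all 32851 promoters, and within 50 bases of the start in 22 (66.7%), against 5.31%. A CCAAT box was in 26 (78.8%), against 37.4%, and both elements were in 23 (69.7%), against 7.52%.

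The promoters below show the elements in the member of each role with the lowest log2 ratio among those with a listed promoter. Each runs 5′ to 3′ on the strand of the gene from 150 bases before to 50 after the start, with matches to the CHR and the CCAAT box, on either strand, in capitals.
Ccnb2, chr9:70421505-70421704, minus strand: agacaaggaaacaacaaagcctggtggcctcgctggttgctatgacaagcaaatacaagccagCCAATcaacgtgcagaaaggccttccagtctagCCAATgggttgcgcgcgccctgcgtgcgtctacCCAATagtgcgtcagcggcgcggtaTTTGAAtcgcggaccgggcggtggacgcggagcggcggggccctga
Kif11, chr19:37376232-37376431, plus strand: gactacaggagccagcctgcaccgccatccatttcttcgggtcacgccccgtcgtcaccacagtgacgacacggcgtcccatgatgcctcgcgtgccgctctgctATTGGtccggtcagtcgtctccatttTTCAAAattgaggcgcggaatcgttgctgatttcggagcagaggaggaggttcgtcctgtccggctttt
Cenpa, chr5:30666736-30666935, plus strand: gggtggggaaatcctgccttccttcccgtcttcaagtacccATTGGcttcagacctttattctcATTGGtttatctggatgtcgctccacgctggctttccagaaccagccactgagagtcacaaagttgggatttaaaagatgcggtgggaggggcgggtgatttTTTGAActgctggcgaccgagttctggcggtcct
Birc5, chr11:117849087-117849286, plus strand: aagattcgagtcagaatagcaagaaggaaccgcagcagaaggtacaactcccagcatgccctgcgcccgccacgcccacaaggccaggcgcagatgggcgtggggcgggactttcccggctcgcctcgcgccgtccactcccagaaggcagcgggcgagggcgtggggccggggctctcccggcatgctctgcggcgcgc
Top2a, chr11:99024140-99024339, minus strand: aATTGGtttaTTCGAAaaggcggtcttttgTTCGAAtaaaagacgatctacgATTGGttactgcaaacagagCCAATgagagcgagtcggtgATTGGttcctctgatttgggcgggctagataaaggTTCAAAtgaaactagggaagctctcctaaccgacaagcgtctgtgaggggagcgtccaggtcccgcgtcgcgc
Cdc20, chr4:118437294-118437493, minus strand: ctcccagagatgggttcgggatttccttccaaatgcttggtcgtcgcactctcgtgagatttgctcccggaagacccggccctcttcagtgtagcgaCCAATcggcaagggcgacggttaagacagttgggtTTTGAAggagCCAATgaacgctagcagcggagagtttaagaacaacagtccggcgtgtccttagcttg
Prc1, chr7:80294301-80294500, plus strand: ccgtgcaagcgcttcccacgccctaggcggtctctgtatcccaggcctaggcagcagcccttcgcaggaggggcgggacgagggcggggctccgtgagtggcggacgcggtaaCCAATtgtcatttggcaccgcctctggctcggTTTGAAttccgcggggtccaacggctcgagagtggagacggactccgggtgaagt

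In the Ccnb2 promoter 3 CCAAT boxes stand before 1 CHR close to the start, and Cdc20 (log2 ratio -0.69) and Cenpa (log2 ratio -0.71) have 2 boxes and 1 CHR each. Kif11 (log2 ratio -0.66) and Prc1 (log2 ratio -0.55) have 1 of each, and Top2a (log2 ratio -0.77) holds 4 boxes and 3 CHRs in this window. Birc5 (log2 ratio -0.33) has 0 of either in these letters. Within the mitosis genes, the 20 measured genes with both elements had a median log2 ratio of -0.51 and a range from -0.77 to -0.10, and the 10 others with a listed promoter had a median of -0.36 and a range from -0.59 to -0.24. These ranges overlap over most of their length. Outside both lists of mitosis genes, the 872 named genes with both elements had a median of -0.07 and the 11940 with a listed promoter but not both had -0.09, a difference of 0.02.

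Other genes of mitosis were mostly lower too, over a wider range. They come from a second list, written for its function with earlier results of these data known. Of 55 such genes 54 were measured, with a median log2 ratio of -0.47. With 75th percentile scaling 53 were lower, against 59.5% of all named genes, and 41 unscaled, against 27.6%. At least 1.5-fold lower were 18, against 4.85% of all named genes, and 4 unscaled, against 1.71%. The lowest were Troap, a spindle protein, with signals of 64.0 and 126 and a log2 ratio of -1.22, and Spag5, the spindle protein astrin, with 484 and 767 and a log2 ratio of -0.91. The highest were Ncapg, a condensin subunit, with -0.05 (above 0 if unscaled), and Aspm, a protein of spindle poles, with 0.05. Kif14, a midzone motor, was not measured. Their promoters held a CHR in 65.4% and both elements in 48.1% of 52.

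Genes of S phase, in which DNA is replicated before mitosis, had a median log2 ratio of -0.37. Of 41 measured, 40 were below 0 with 75th percentile scaling, against 59.5% of all named genes, and 33 unscaled, against 27.6%. At least 1.5-fold lower were 8, against 4.85%, and 1 unscaled, against 1.71%. Their extremes were Ccne1, the cyclin E that starts S phase, with 904 and 1764 (log2 ratio -1.21), Rrm2, a ribonucleotide reductase subunit, with -0.80, Ccne2, the other cyclin E, with -0.01 (above 0 if unscaled), and Tyms, thymidylate synthase, with 0.06. The median of the mitosis genes lay 0.07 below that of the S phase genes, a gap that cannot be tested with 1 array per group. Their promoters differed in the CHR and in E2F sites, less so in the CCAAT box. A CHR was in 15.8% of 38 S phase promoters and in 75.8% of those of the mitosis genes. A CCAAT box was in 60.5% of the S phase and 78.8% of the mitosis promoters, against 37.4% of all. An E2F site (TTTCCCGC, TTTGGCGC or TTTCGCGC on either strand) was in 36.8% of the S phase promoters and in 1 of 33 (3.03%) of the mitosis promoters. It was in 11.5% of promoters of the other mitosis genes and in 1.84% of all.

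Of 13 genes for the complexes that bind the CHR, the CCAAT box or E2F sites, 11 were lower with 75th percentile scaling, against 59.5% of all named genes, and 5 unscaled, against 27.6%. Their median was -0.22, and 0.02 unscaled. Lin54, the MuvB subunit that binds the CHR, gave 700 and 947 (log2 ratio -0.68). Rbl1, the pocket protein p107, had a log2 ratio of -0.42, Rbl2, the related p130 of resting cells, 0.02, and Nfya, the NF-Y subunit that binds CCAAT, 0.05. Foxm1, a member of the mitosis list, had -0.48.

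Markers of some cell types of the ovary differed between the arrays too, and their part in the result was not tested. Well above background on both arrays were 13 of 13 granulosa and 16 of 16 oocyte markers. So were 15258 of all 16282 named genes, so this detection does not identify the tissue. For the counts below, 59.5% of all named genes were lower with 75th percentile scaling and 27.6% unscaled. Of the 13 granulosa markers 10 were lower and 3 higher (8 and 5 unscaled), with a median log2 ratio of -0.47, close to that of the mitosis genes (unscaled -0.23 against -0.20), and their summed scaled signal was 197 times the 75th percentile with the agonists and 242 with the antagonists. They ranged from Inhbb, an inhibin and activin subunit, at -1.17 and Fst, which encodes follistatin, at -0.78 to Cyp19a1, the aromatase, at 0.37 and Amhr2, the receptor of anti-Müllerian hormone, at 0.38. Of the 16 oocyte markers 5 were lower and 11 higher (0 and 16 unscaled), with a median of 0.17 and summed signals of 387 and 389. They ranged from Zp3, a zona pellucida protein, at -0.13 and Gdf9, an oocyte growth factor, at -0.08, both above 0 if unscaled, to Sohlh1 and Figla, transcription factors of young oocytes, at 0.51 and 0.59.

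Markers of cells outside the granulosa layer were mostly higher. Of 26 measured markers of stroma, endothelium, macrophages, smooth muscle and surface epithelium, 24 were higher, with a median log2 ratio of 0.69. Summed signals of the 26 were 511 with the agonists and 411 with the antagonists, and the macrophage marker Cd68 was not measured. The 2 lower ones were Lum, a stromal proteoglycan, at -0.30 and Kdr, the VEGF receptor of endothelium, at -0.27. The 4 measured of 6 theca markers were split evenly, with a median of -0.10 that is above 0 if unscaled. Lhcgr and Insl3, markers of mature theca, were not measured. Whether the lower signals of the mitosis genes come from the ligands, from a smaller share of granulosa cells in the tissue or from the choice of ovaries cannot be told apart with 1 array per group. As references, Actb had a log2 ratio of -0.01 and Gapdh of -0.17, both above 0 if unscaled.

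**Figure D4:**
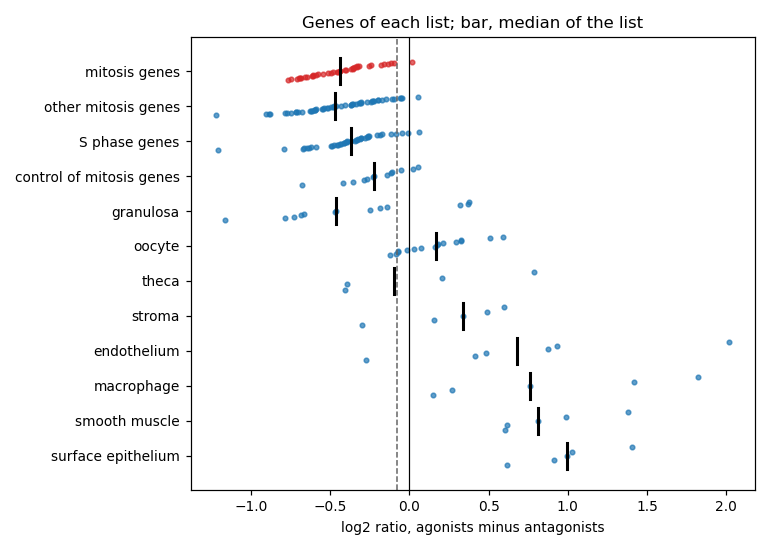
Log2 ratio (agonists minus antagonists, x axis) of each measured gene of 12 lists (y axis) with 75th percentile scaling; points are genes, black bars the median of the list and the dashed line the median of all named genes at -0.08. The mitosis genes (median -0.44), other mitosis genes (-0.47), S phase genes (-0.37) and granulosa markers (-0.47) lie to the left, the oocyte markers around 0.17, and the lists of endothelium, macrophages, smooth muscle and surface epithelium to the right.

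How far below 0 the mitosis genes lay depended on how the arrays were scaled, and how far below other genes they lay varied less. Their median log2 ratio was -0.20 unscaled and -0.19 on spike-in controls, where the median of all named genes was 0.15 and 0.16. Without scaling, 33 of the 39 genes were lower and 6 higher with the agonists, and the 6 were Bub1b, Dlgap5, Espl1, Kif23, Kif4 and Ttk. Spike-in scaling added Nusap1. The median of the mitosis genes lay between 0.30 and 0.37 below that of all named genes in all 17 settings. A factor common to an array hardly changes this distance, by construction, so several of these settings could not have moved it.

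**Figure D5:**
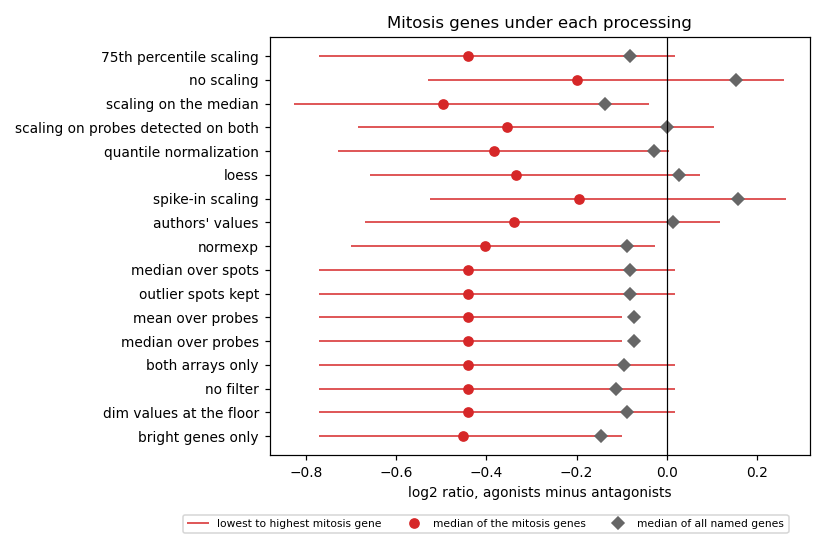
Log2 ratio (agonists minus antagonists, x axis) of the mitosis genes under 17 settings of the processing (y axis); circles are the median of the mitosis genes, lines run from the lowest to the highest of them, and diamonds are the median of all named genes. The circle lies left of 0 in all 17 settings, at -0.19 with spike-in scaling and -0.50 with scaling on the median, and left of the diamond by 0.30 to 0.37. A factor common to an array hardly changes the distance from circle to diamond, by construction.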

How the data were processed

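Gene expression was measured on 2 single-colour arrays (SurePrint G3 Mouse GE 8 x 60K), 1 for each group of the sample labels. Per the file headers, images were read with Agilent Feature Extraction 10.10.1.1, and the authors deposited a linear intensity per spot after background subtraction, unscaled between arrays, beside other marks for outlying, saturated and well detected spots. A second deposited table held the same intensity multiplied by 1.99 on the agonist and 2.19 on the antagonist array (to within 4.97e-10 in relative terms).

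Control and outlier spots were left out, log2 signals were taken relative to the 75th percentile, and a probe was averaged over its spots. It passed if more than 50% of them were well above background. RefSeq transcripts (GRCm38.p6, names only) gave a symbol to 27230 of 55674 probes. The probe with the highest mean signal stood for a gene, and 4111 genes had over 1 probe. For a probe that passed on 1 array only, the log2 ratio is a bound. The number of arrays limits the precision.

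The mitosis genes, other lists and thresholds were chosen with earlier results of these data known. By the naming rule every mitosis gene and, of each other list, the 2 highest and 2 lowest genes could be named, and those a result turns on are printed; Lum and Kdr were named after their values were seen. Alternatives were 6 scalings (none, median, shared probes, quantiles, loess of span 0.3, and 8 E1A spike-in probes), the second table, normexp (offset 50), other spot and probe summaries, other dim-probe filters and a 2-fold threshold. Python 3.11.15, numpy 2.4.6, pandas 2.3.3, statsmodels 0.14.6, R 4.3.3 and limma 3.58.1 were used, and the calculation was tested on simulated data.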

Additional observations from a re-analysis of the deposited data

How the results depend on the processing

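No paired analysis was possible because each group has a single array. The median log2 ratio of the mitosis genes, -0.44, kept its sign throughout. Unscaled it was -0.20, and it was -0.35 with scaling on probes well above background on both arrays, -0.33 with loess, -0.19 on spike-in controls and -0.34 in the authors' table, and it moved by less than 0.07, the median SD between spots, in the other settings. The number of mitosis genes at least 1.5-fold lower, 12, was 0 unscaled or scaled on spike-in controls, 6 with scaling on probes well above background on both arrays, with quantile normalization and with the authors' values, 5 with loess, 7 with normexp and 0 with the 2-fold threshold. For the other mitosis genes the median of -0.47 was -0.23 with no scaling, -0.38 with scaling on probes well above background on both arrays, -0.39 with quantile normalization, -0.34 with loess, -0.22 on spike-in controls, -0.37 in the authors' table and -0.39 with normexp. For the S phase genes the median of -0.37 was -0.13, -0.28, -0.29, -0.24, -0.12 and -0.27 in the same order without normexp. Of the 39 mitosis genes at least 32 were below 0 in each setting that kept them all, and 29 of 29 with bright genes only. The distance to the median of all named genes and the number of members below it were added after seeing the data and moved by less than the same limits. A factor common to an array hardly changes either, by construction. Of 614 values of single mitosis genes under the alternatives, 381 moved by less than 0.07 and 233 by more, and 0 of those at least 1.5-fold lower changed sign. The common shift without scaling, 0.24, was too small to reverse such a gene, whereas Bub1b, Espl1, Kif23, Kif4 and Ttk were above 0 unscaled. For the unscaled, spike-in, median and shared-probe settings and the authors' table the shift is a factor common to the array, by construction. For the other settings the cause was not tested. The scanner's signal over background limits Cenpf and the dim probes of Cdk1 and Foxm1.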
